A study of Mus musculus with 4 samples.

Results

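The genes described are 10 members of the Notch pathway: the receptor genes Notch1, Notch2 and Notch3, the Jagged ligand genes Jag1 and Jag2, and the target genes Hes1, Hey1, Hey2, Heyl and Nrarp. They were chosen by gene symbol from the 23107 genes of the deposited tables, and all 10 were listed and had values high enough to be tested. The libraries came from tdTomato+ cells sorted from the dental follicle of mouse mandibular molars, a mesenchymal layer that surrounds the developing tooth. The conditional knockout group (cKO, n = 2 libraries, genotype label Ptch1(-/-)) was compared with the conditional heterozygous group (cHet, n = 2 libraries, Ptch1(+/-)). Both groups had tamoxifen at postnatal day 3, were collected at postnatal day 8 and carried the tdTomato label of PTHrP+ follicle cells. The cHet cells had 1 targeted Ptch1 copy and were not wild type. The Cre driver, the sex of the mice, and whether animals were pooled are not given in the sources used here. Libraries are named cKO_0, cKO_1, cHet_0 and cHet_1, as in the columns of the tables.

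Notch receptors are cell surface proteins that are activated by ligands, of the Jagged or Delta-like family, on a neighbouring cell. Binding leads to cleavage of the receptor, first by an ADAM protease and then by gamma-secretase, and the freed intracellular part joins the DNA-binding protein RBPJ and Mastermind proteins to switch on targets such as the Hes and Hey repressor genes. In teeth, Notch genes are known from the enamel epithelium, the dental pulp and odontoblasts, and the vessel wall, as well as from mesenchymal progenitors.

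The check of the genotype was the hedgehog pathway, which Ptch1 restrains. Ptch1 was listed at a scaled count (a read count per gene, rescaled by the authors with 1 factor for each library) of 22420.0 and 23341 in cKO and 12867 and 5438 in cHet. These values sum over all exons, so the deleted part is not seen in them. Gli1, the standard target of the pathway, was at 6388 and 6955 in cKO and 4132 and 3350 in cHet. Hhip, a hedgehog-binding inhibitor and target, was at 175453 and 160516 in cKO and 62357 and 60651 in cHet. In FPKM the groups overlapped for Hhip, at 273 and 84.1 in cKO and 101 and 25.5 in cHet. For Ptch1 and Gli1 both cKO libraries lay above both cHet libraries in FPKM too. In limma, 0 of 14297 genes (0.0%) passed a Benjamini-Hochberg adjusted p of 0.05 in either direction, and 433 (3.03%) had an unadjusted p under 0.05. No overlap between the groups was seen for 2576 genes with cKO above (18.0%) and 2032 with cKO below (14.2%), 32.2% together. The scaled totals were 69361760 to 71228340 per library. The cHet_1 library had 34 genes at 0 that reached 100 in each of the others, against 0 to 3 such genes in each of the others, and the fewest genes at 1 FPKM or more (9850, against 11355 to 12360).

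Of the 10 Notch genes, 0 passed the adjusted threshold in either direction. For Hes1 the cKO libraries both lay above the cHet libraries. For Heyl, Hey1 and Notch3 they both lay below. The other 6 overlapped between the groups, so that 40.0% of the 10 genes did not overlap, beside 32.2% of all genes tested. Hes1 and Heyl had unadjusted limma p of 0.0493 and 0.0312. Log2 fold changes were above 0 for 4 genes and below 0 for 6, with a median of -0.46 beside 0.12 over all genes tested. The size of that median rested on single libraries, while its sign did not. It was -0.055 without cKO_0, beside 0.11 for all genes, and -0.14 without cHet_0, beside 0.23. It was -0.40 without cHet_1, beside -0.050, and -0.75 without cKO_1, beside 0.16. With 2 libraries against 2, an exact two-sided permutation test of a single gene cannot give a p below 0.333. In bulk RNA, fewer cells of a type and less RNA per cell cannot be told apart.

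**Figure D1:**
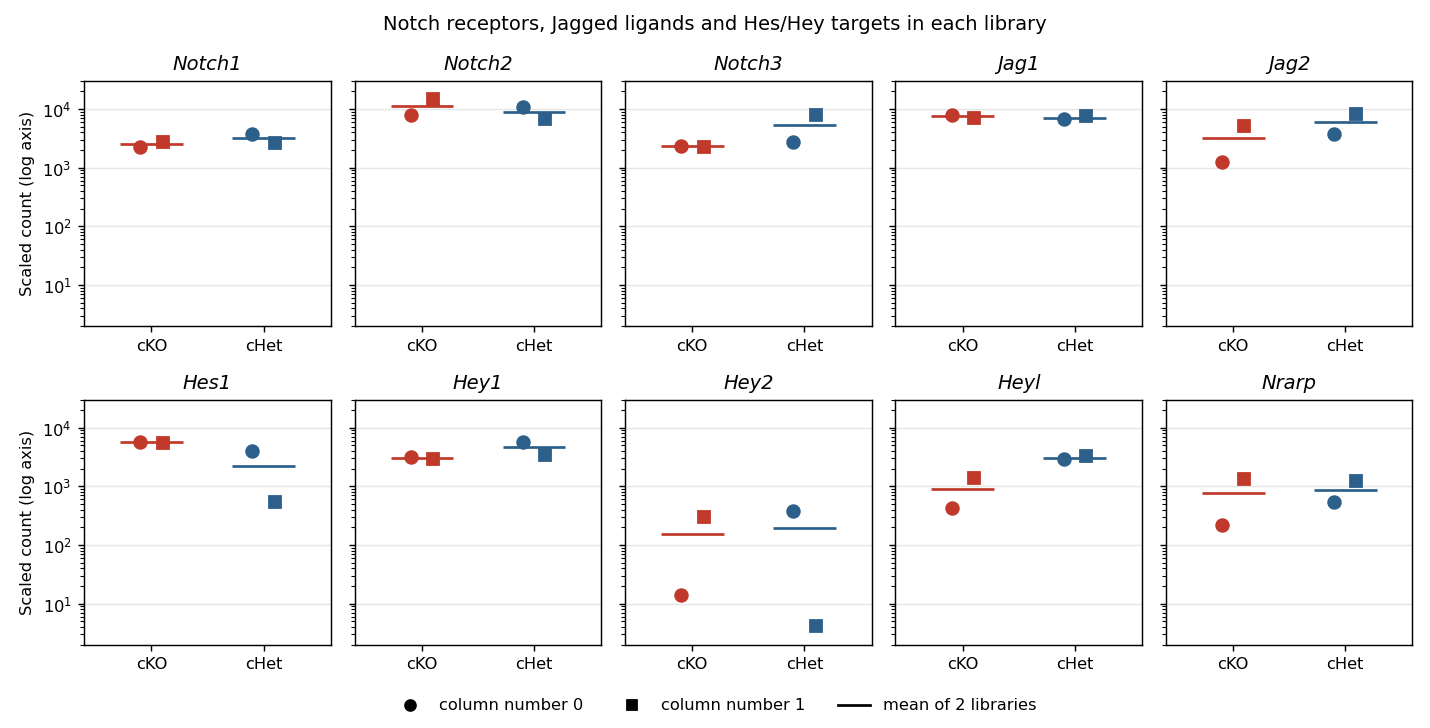
Scaled count of each of the 10 genes in each library on a shared log axis, with cKO at the left and cHet at the right of each panel, circles and squares for column numbers 0 and 1, and a bar at the mean of the 2 libraries. Hes1 is the gene whose cKO libraries both lie above cHet, and Notch3, Hey1 and Heyl are those whose cKO libraries both lie below; Hey2 spans 4.19 to 377 scaled counts.

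Ligands. Jag1, which encodes the broadly expressed Jagged ligand (chromosome 2, 137081456 to 137116644, minus strand, mm10), was at 7964 and 7086 scaled counts in cKO and 6632 and 7577 in cHet. Its 4 values lay close together and the groups overlapped. The means were 7525 ± 620 in cKO and 7105 ± 668 in cHet (SD, n = 2 each). The log2 fold change, on the scale of log2(scaled count + 3) and cKO minus cHet throughout, was 0.08 with a 95% interval of -0.59 to 0.76, which held 0. Jag1 had the smallest standard error of the 10 genes, 0.29.

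Jag2 (chromosome 12, 112907819 to 112929776, minus strand), the ligand gene known in teeth from the ameloblast lineage, was at 1265 and 5218 in cKO and 3793 and 8349 in cHet. The groups overlapped, and each group held a low and a high library, 4.13-fold apart in cKO. On the log2 scale the difference was -1.13 (95% interval -2.73 to 0.47). It was -0.11 without cKO_0, -2.15 without cKO_1, -1.70 without cHet_0 and -0.56 without cHet_1. The order of the libraries for Jag2 was the order for Cdh1, the epithelial cadherin gene, at 2955 and 16349 in cKO and 13278 and 22013 in cHet. Markers of the dental epithelium, 14 of 14 listed above 0 in every library, accounted for 1.44% and 4.02% of each library's total in cKO and 0.978% and 2.19% in cHet. Of these markers 1 lay higher and 2 lower in cKO without overlap, beside 18.0% and 14.2% of all genes. The most abundant of these markers, the enamel matrix genes Amelx and Ambn, ran in another order than Jag2: Amelx was at 499696 and 1334660.0 in cKO and 275248 and 698812 in cHet, and Ambn at 376029 and 976072 in cKO and 165646 and 394081 in cHet. The part of epithelium in the Jag2 values was not tested.

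Per kilobase of merged exons, which scales levels for gene length, Jag1 made up 85.1% and 55.3% of the 2 Jagged transcripts in cKO and 61.4% and 45.2% in cHet. The shares overlapped. By this measure Jag1 was the larger part in each library except cHet_1. In FPKM, Jag1 was above Jag2 in cKO_0 (21.0 against 4.66) and cHet_0 (17.6 against 13.4). It was below Jag2 in cKO_1 (8.24 against 26.7) and cHet_1 (8.18 against 48.2). The larger part in cKO_1 thus depended on the measure.

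Receptors. Notch1 (chromosome 2, 26457903 to 26516663, minus strand) was at 2216 and 2769 scaled counts in cKO and 3792 and 2673 in cHet. Both cKO values lay near the lower cHet value, and the groups overlapped. Its log2 fold change was -0.36 (95% interval -1.43 to 0.71), and it was -0.11 without cHet_0, -0.20 without cKO_0 and -0.61 without cHet_1. Exons of 2 transcripts on the opposite strand, 0610009E02Rik and Gm13568, overlap Notch1, and no source used here says if reads were counted by strand.

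Notch2 (chromosome 3, 98013527 to 98150361, plus strand) was at 7795 and 14610 in cKO and 10753 and 6873 in cHet. The cKO libraries held the highest value and a low one, and the groups overlapped. On the log2 scale cKO lay 0.31 higher (95% interval -0.57 to 1.19). It was 0.76 without cKO_0, -0.14 without cKO_1, 0.63 without cHet_0 and -0.01 without cHet_1, so that its sign rested on single libraries. A transcript on the same strand, Gm42820, overlaps the exons of Notch2.

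Notch3 (chromosome 17, 32120820 to 32166852, minus strand), the receptor gene best known from the smooth muscle and pericytes of vessel walls, was at 2359 and 2255 in cKO and 2712 and 8026 in cHet. Both cKO libraries lay below both cHet libraries, but cHet_0 was close to them and cHet_1 was 2.96-fold above cHet_0. The means were 2307 ± 74.0 in cKO and 5369 ± 3757 in cHet (SD, n = 2 each). The log2 fold change was -1.02 (95% interval -2.31 to 0.28), and -0.23 without cHet_1. Without cHet_0 it was -1.80. An antisense transcript, Gm17276, overlaps its exons.

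Mural cell markers, which include the smooth muscle actin gene Acta2 and the receptor gene Pdgfrb that follicle mesenchyme also expresses, were read beside Notch3. Their 12 genes summed to 0.172% and 0.195% of the scaled counts in cKO and 0.155% and 0.141% in cHet. Of the 10 tested, 10 had log2 fold changes above 0, 2 of them without overlap, beside 18.0% of all genes higher without overlap. The pericyte gene Rgs5 was at 115 and 544 in cKO and 571 and 2.09 in cHet. Acta2 was at 52358 and 61932 in cKO and 52635 and 49616 in cHet, and Pdgfrb at 24063 and 23555 in cKO and 17720.1 and 17193 in cHet. Higd1b was listed at 0 in all 4 libraries, and Des at 0 in both cHet libraries. The part of mural cells in the Notch3 values was not tested.

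Among the 4 receptor genes, counted per kilobase and with Notch4 included, Notch2 was the largest part in cKO_0, cKO_1 and cHet_0, at 55.3%, 63.1% and 57.9%. In cHet_1 it was 27.8%, and Notch3 was the largest part at 42.6%. Notch3 made up 21.9% and 12.8% in cKO and 19.1% in cHet_0. Notch1 made up 17.4% and 13.2% in cKO and 22.6% and 12.0% in cHet. Notch4, a receptor gene of endothelium and not 1 of the 10 genes, was at 483 and 1584 scaled counts in cKO and 38.1 and 2724 in cHet.

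**Figure D2:**
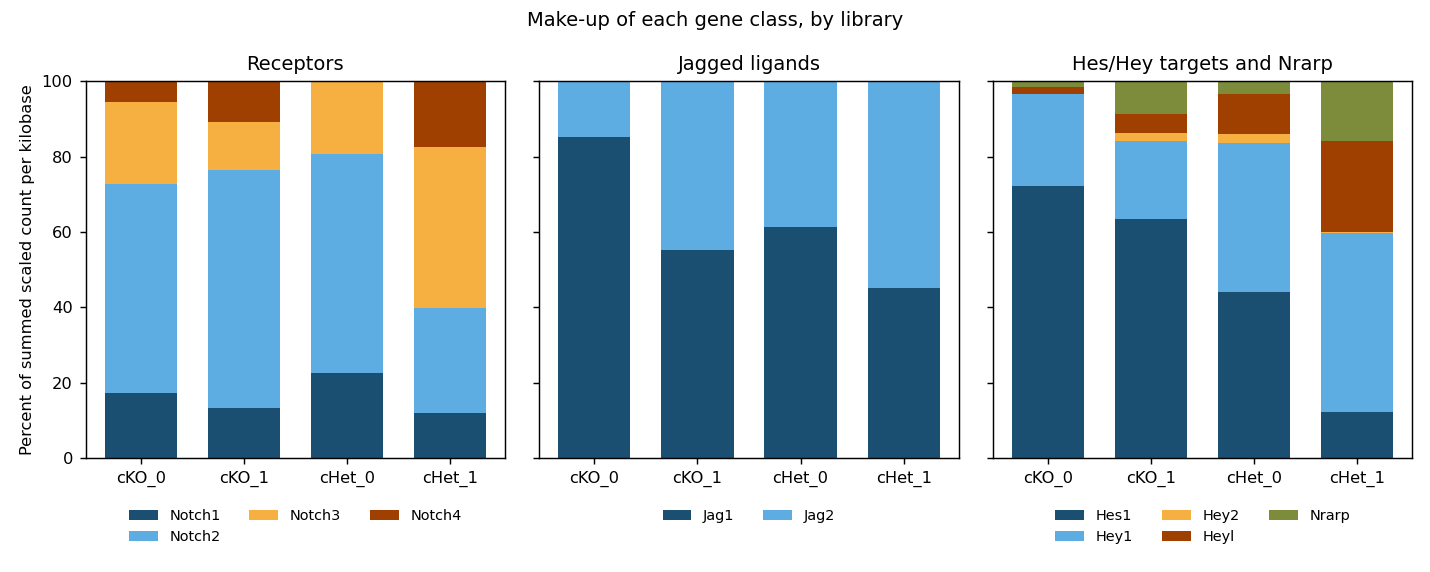
Share of each gene in the summed scaled count per kilobase of merged exons (percent, vertical axis) for the receptors, the Jagged ligands and the 5 targets, with 1 bar per library and the cKO libraries at the left. In the right panel Hes1 fills 72.2% and 63.6% of the bar in cKO and 44.2% and 12.4% in cHet; in the left panel cHet_1 differs from the other 3 libraries in its Notch3 share of 42.6%.

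Targets. Hes1 (chromosome 16, 30064384 to 30067796, plus strand) encodes a transcriptional repressor that Notch switches on and that represses its own gene; growth factor and hedgehog signals can also raise it. It was at 5705 and 5426 scaled counts in cKO and 3922 and 537 in cHet. The cKO libraries lay within 1.05-fold of each other and above both cHet libraries, which were 7.30-fold apart. The means were 5565 ± 197 in cKO and 2229 ± 2393 in cHet (SD, n = 2 each). The log2 fold change was 1.94 (SE 0.84, 95% interval 0.0077 to 3.86). Its Benjamini-Hochberg adjusted p in limma was 0.913.

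How far Hes1 stood apart depended on cHet_1. Without that library the log2 fold change was 0.50. Without cHet_0 it was 3.37 and passed the threshold (adjusted p = 0.0140), in a comparison where 7.42% of all genes were called higher and 0.546% lower. No other of the 10 genes was called without a single library; beside that, 0.049% of all genes were called higher and 0.035% lower without cKO_0, 0.0699% and 0.224% without cKO_1, and 0.0% in both directions without cHet_1. Hes1 was higher in cKO within both column numbers, by a log2 ratio of 0.54 for cKO_0 over cHet_0 and 3.34 for cKO_1 over cHet_1. Immediate early genes, which tissue dissociation also raises, summed to 1.29% and 2.09% of the scaled counts in cKO and 1.23% and 1.25% in cHet, with 11 of 12 above 0 and 4 of 12 higher without overlap, beside 18.0% of all genes higher without overlap. Fos was at 194974 and 353039 in cKO and 200327 and 236000.0 in cHet, Egr1 at 238656 and 329256 in cKO and 215122 and 195710.0 in cHet. Their part in the Hes1 values was not tested.

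Heyl (chromosome 4, 123233556 to 123249875, plus strand), a Hes-related repressor gene known as a Notch3 target in vessel walls, was at 432 and 1361 in cKO and 2881 and 3258 in cHet. Both cKO libraries lay below both cHet libraries, and the cHet libraries lay within 1.13-fold of each other. The means were 896 ± 657 in cKO and 3069 ± 266 in cHet (SD, n = 2 each). The difference was -1.99 on the log2 scale (SE 0.76, 95% interval -3.76 to -0.23). Its Benjamini-Hochberg adjusted p in limma was 0.913. It lay between -2.82 and -1.17 whichever library was left out, nearest to 0 without cKO_0, and it was the member with the lowest unadjusted p. The part of mural cells in the Heyl values was not tested.

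Hey1 (chromosome 3, 8663359 to 8667256, minus strand), a repressor gene of the same family, was at 3172 and 2896 in cKO and 5774 and 3404 in cHet. The cKO libraries lay within 1.10-fold of each other, and the nearer cHet library, cHet_1, was only just above them. The log2 difference was -0.55 (95% interval -1.53 to 0.44). It was -0.93 without cHet_1 and -0.17 without cHet_0.

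Hes1 and Heyl had opposite signs with all 4 libraries and without each single library, as had Hes1 and Hey1. Of the 5 targets counted per kilobase, Hes1 made up 72.2% and 63.6% in cKO and 44.2% and 12.4% in cHet. Heyl made up 1.77% and 5.16% in cKO and 10.5% and 24.3% in cHet, and Hey1 24.3% and 20.6% in cKO and 39.4% and 47.5% in cHet. The groups did not overlap for any of these 3 shares, which are parts of 1 sum and not independent. The sum itself overlapped, at 5379 and 5815 scaled counts per kilobase in cKO and 6048 and 2959 in cHet.

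The last pair of targets was low and uneven. Hey2, a repressor gene known from arteries and heart (chromosome 10, 30832359 to 30842801, minus strand), was at 14.0 and 294 in cKO and 377 and 4.19 in cHet. Each group held a library near 0, and the log2 fold change of 0.44 had a 95% interval of -6.24 to 7.13. Nrarp, a feedback inhibitor of Notch that binds the RBPJ complex (chromosome 2, 25180758 to 25183339, plus strand), was at 214 and 1313 in cKO and 545 and 1210 in cHet. Both groups had a lower library with column number 0 and a higher one with number 1, and the log2 fold change was -0.61 (95% interval -3.64 to 2.42). It was 0.69 without cKO_0. An antisense transcript, Gm38287, overlaps the exons of Nrarp.

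RefSeq promoter windows (GRCm38.p6) were given for 7 of the 10 genes: Notch1, Notch2, Notch3, Jag1, Jag2, Hey2 and Nrarp. Those of the targets Hey2 and Nrarp are shown because their genes are read as outputs of RBPJ. Capitals mark the RBPJ core TGGGAA, read as its reverse complement in Hey2, and the E box CACGTG, to which HES and HEY proteins bind, in Nrarp. Hey2 is chr10:30842802-30843033 on the minus strand and Nrarp chr2:25180508-25180757 on the plus strand, each ending before the first annotated start site.
Hey2: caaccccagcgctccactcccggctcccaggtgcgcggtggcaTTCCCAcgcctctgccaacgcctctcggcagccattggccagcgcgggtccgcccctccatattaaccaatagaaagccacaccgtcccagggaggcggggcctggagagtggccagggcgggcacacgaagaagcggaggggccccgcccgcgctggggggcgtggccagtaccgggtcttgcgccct
Nrarp: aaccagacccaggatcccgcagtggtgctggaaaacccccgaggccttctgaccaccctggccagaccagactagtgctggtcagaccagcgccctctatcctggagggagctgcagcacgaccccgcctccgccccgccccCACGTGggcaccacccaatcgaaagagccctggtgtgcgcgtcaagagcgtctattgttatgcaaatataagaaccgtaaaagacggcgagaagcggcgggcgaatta

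The search covered all 250 bases before the start site of each window, also where the printed sequence is shorter. TGGGAA on either strand was found in 1 of the 7 windows, that of Hey2 at -207 to -202, beside 21.6% of all 32851 windows. CACGTG, which reads the same on both strands, was found in Nrarp alone of the 7, at -108 to -103, beside 6.02% of all windows. The N box CACNAG was found in 4 of the 7, Notch1, Notch2, Notch3 and Nrarp, beside 36.7%. The GLI consensus TGGGTGGTC was in 0 of the 7 and 0.225% of all windows. A match of letters is a description of the window and not a binding site.

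**Figure D3:**
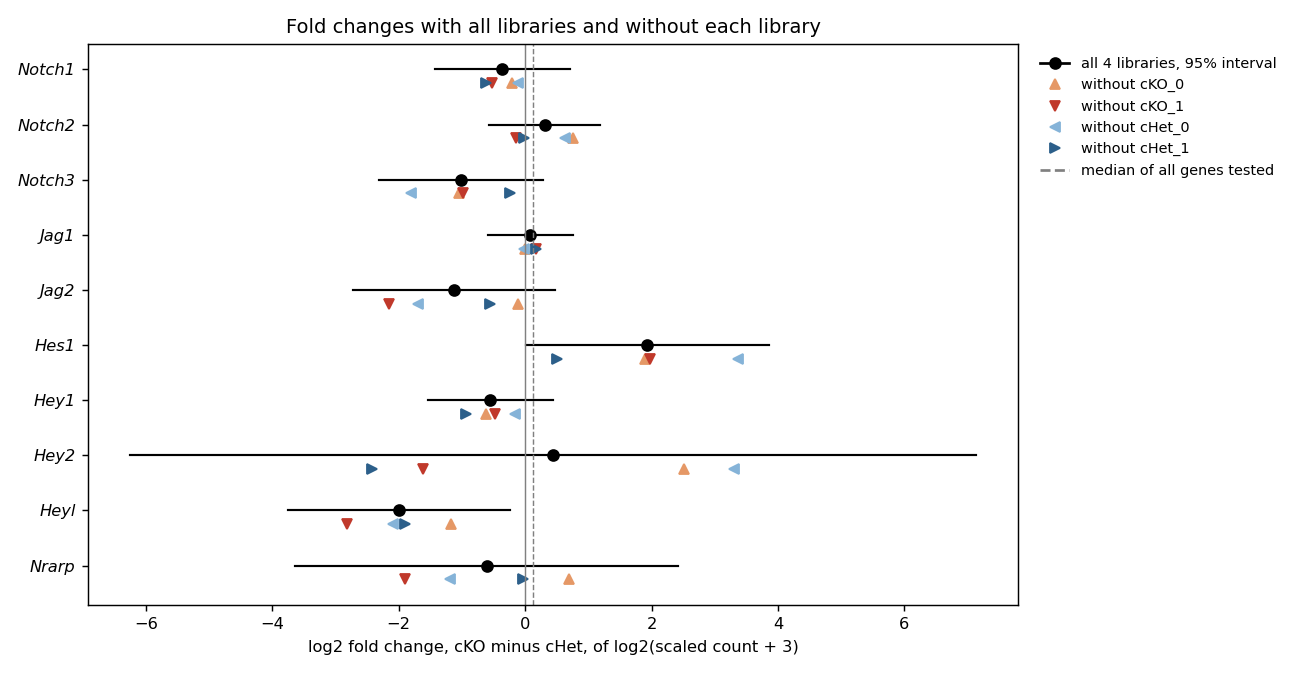
Log2 fold change, cKO minus cHet, of log2(scaled count + 3) for each gene with all 4 libraries (black points, lines for limma's 95% interval) and without each library in turn (coloured triangles), with the median of all genes tested, 0.12, as a dashed line. Heyl, Notch3, Jag2, Hey1 and Notch1 stay below 0 and Hes1 above 0 in every case, while Notch2, Jag1, Hey2 and Nrarp change sign.

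By level per kilobase, Hes1 stood first of the 10 genes in cKO, at 3886 and 3696 scaled counts per kilobase, with no overlap with Jag1 in the next place (1419 and 1263). In cHet, Hey1 had the highest mean (2383 and 1405) and Hes1 the next (2671 and 366), and these overlapped. Hey2 stood last in all 4 libraries. In cKO, Hes1 and Jag1 were the only neighbours in the order whose ranges did not overlap. In cHet, Nrarp (211 and 469) and Hey2 (148 and 1.64) were. The order depended on the measure. In FPKM, Hes1 was also first in cKO_0 (70.4) and cKO_1 (40.1). The next gene was Hey1 in cKO_0 (22.9) and Jag2 in cKO_1 (26.7). In cHet, Jag2 (13.4 and 48.2 FPKM) had the highest mean, above Hey1 (41.6 and 10.9) and Hes1 (47.6 and 3.65).

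The replicate spread of the genes differed. The libraries of a group lay a median of 0.58 log2 units apart in cKO and 0.87 in cHet over all genes tested. Hes1, Notch3, Hey1 and Jag1 lay 0.17 or less apart in cKO, and Jag1 and Heyl 0.19 or less apart in cHet. Hey2 lay 4.13 apart in cKO and 5.73 in cHet, and Nrarp 2.60 apart in cKO and 1.15 in cHet.

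The other genes of the pathway were read from 6 lists of 55 genes. Of these, 47 were tested, and 0 passed the adjusted threshold in either direction. Log2 fold changes were above 0 for 31 and below 0 for 16, with a median of 0.18 beside 0.12 over all genes tested. The median of the 47 was 0.0036 without cKO_0, 0.023 without cHet_0, 0.18 without cHet_1 and 0.20 without cKO_1. Without overlap, 11 genes lay higher in cKO and 9 lower, which is 42.6% of the 47, beside 32.2% of all genes. These counts are of scaled counts. Of the genes without overlap named below, Adam10, Pofut1, Maml2, Rbpj, Aph1a and Dner overlapped in FPKM. Dll1, Mib1, Spen, Rfng, Dtx2 and Bhlhe40 did not overlap in FPKM either. An unadjusted limma p under 0.05 was reached by 0 genes on the higher side and by 2 on the lower side, Dll1 and Adam10, beside 1.54% and 1.49% of all genes. The 8 genes not tested were Dll3, Dll4, Mfng, Hes2, Hes3, Hes5, Hes7 and Helt. Of these Mfng, Hes3, Hes5 and Helt were listed at 0 in all 4 libraries.

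Dll1, a Delta-like ligand gene, stood farthest from 0 among these 47 genes. It was at 79.7 and 35.2 scaled counts in cKO and 1293 and 1987 in cHet. Both cKO libraries lay far below both cHet libraries, which were 1.54-fold apart. Its log2 fold change was -4.84 (SE 1.65, 95% interval -8.64 to -1.04). The Benjamini-Hochberg adjusted p in limma was 0.913. The log2 value lay between -5.39 and -4.28 whichever library was left out. Odontoblast markers, a cell type in which Dll1 is known, lay on the same side. All 5 had log2 fold changes below 0. Without overlap, 3 of them were lower, beside 14.2% of all genes, and the rest overlapped. The 5 summed to 16806 and 25176 in cKO and 100476 and 99102 in cHet. The dentin gene Dspp was at 229 and 9251 in cKO and 27937 and 69633 in cHet, and Smpd3, a mineralisation gene, at 11136 and 7455 in cKO and 44929 and 19766 in cHet. The part of odontoblasts in the Dll1 values was not tested. None of these 5 markers was at 0 in any library.

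Dll4, the ligand gene of sprouting endothelium, was at 1.08 and 722 in cKO and 0 and 5.23 in cHet. Only cKO_1 was high. That library also had the highest sum of the 15 endothelial markers, with 5195 and 23846 in cKO and 4212 and 7787 in cHet. Of the 13 tested, 12 had log2 fold changes above 0. Without overlap, 5 lay higher in cKO, beside 18.0% of all genes. Pecam1 was at 300 and 1278 in cKO and 0 and 5.23 in cHet, Cdh5 at 471 and 874 in cKO and 40.5 and 69.1 in cHet. The more abundant endothelial markers overlapped, Kdr at 1944 and 3145 in cKO and 1900.4 and 4054 in cHet and Plvap at 232 and 6462 in cKO and 270.4 and 679 in cHet. The part of endothelium in the Dll4 values was not tested. Dner, a non-canonical ligand gene, was at 6304 and 4236 in cKO and 3594 and 2483 in cHet, a log2 fold change of 0.79 (95% interval -0.17 to 1.75; 0.50 without cKO_0).

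Receptor cleavage. Adam10, the protease gene of the first cut, was at 5255 and 6474 in cKO and 9391 and 9355 in cHet. Both cKO libraries lay below both cHet libraries, which were nearly equal. For Adam10 the log2 fold change was -0.68 (95% interval -1.36 to -0.01), and between -0.83 and -0.53 without single libraries. Aph1a, a scaffold subunit gene of gamma-secretase, was at 7512 and 7590 in cKO and 6313 and 1685 in cHet. Its log2 fold change of 1.21 was 0.26 without cHet_1, the low library. Of the 10 cleavage genes, 6 had values above 0 and 4 below.

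Nuclear complex. Rbpj, the DNA-binding partner of all Notch receptors, was at 3754 and 4396 in cKO and 5845 and 6642 in cHet. The groups did not overlap in scaled counts, and the libraries of each lay within 1.17-fold and 1.14-fold of each other. In FPKM the groups overlapped, at 10.2 and 4.24 in cKO and 16.3 and 5.55 in cHet. For Rbpj the log2 fold change was -0.62 (95% interval -1.39 to 0.16), and between -0.73 and -0.50 without single libraries. The coactivator gene Maml2 was at 1925 and 788 in cKO and 1976 and 4742 in cHet, with a log2 fold change of -1.31 (-0.67 without cKO_1 and -0.68 without cHet_1). Spen, a corepressor gene of RBPJ, was at 4570 and 4078 in cKO and 5696 and 8425 in cHet, with -0.68 (-0.40 without cHet_1). Of the 13 genes of this list, 9 had values above 0 and 4 below, with a median of 0.04.

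Glycosylation and trafficking. Pofut1, which encodes the enzyme that adds O-fucose to Notch, was at 3106 and 2521 in cKO and 4465 and 4496 in cHet (log2 fold change -0.68). Poglut1, the O-glucose enzyme gene, overlapped (-0.66, and -0.32 without cHet_1 or -0.34 without cKO_1). Rfng, a Fringe gene, was higher in both cKO libraries (0.51, and 0.34 without cHet_1). Mib1, the ubiquitin ligase gene needed in the cell that sends the ligand, was at 1020 and 1395 in cKO and 2317 and 3153 in cHet. Its log2 fold change was -1.18 (95% interval -2.56 to 0.21). Dtx2, a Deltex ligase gene, was at 1809 and 2021 in cKO and 1152 and 24.1 in cHet. Its log2 fold change of 3.44 was 0.73 without cHet_1. Neurl1a overlapped, at 2284 and 966 in cKO and 1190 and 90.0 in cHet.

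Other bHLH repressors. Bhlhe40, which many signals besides Notch induce, was at 6238 and 13040 in cKO and 6092 and 4865 in cHet, and the lower cKO value lay close to the higher cHet value. Its log2 fold change was 0.73 (95% interval -0.20 to 1.65), and it was 0.20 without cKO_1 and 1.26 without cKO_0. Hes6, known to oppose Hes1, was at 3835 and 904 in cKO and 2922 and 723 in cHet, split by column number and not by group. Bhlhe41 overlapped, at 36.6 and 194 in cKO and 218 and 0 in cHet.

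**Figure D4:**
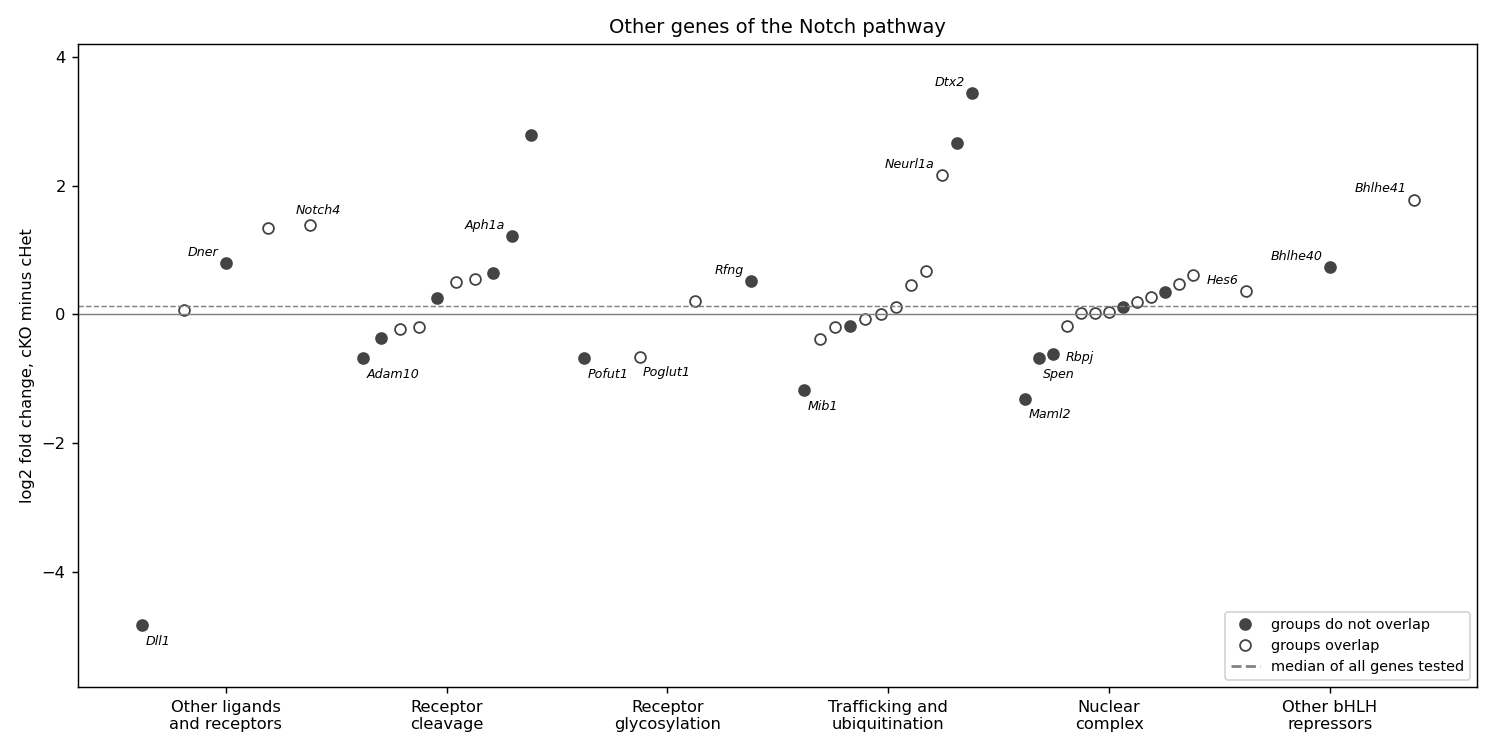
Log2 fold change, cKO minus cHet, of the 47 tested genes of the other 6 Notch lists, with filled points where the groups do not overlap in scaled counts, open points where they do, and a dashed line at 0.12, the median of all genes tested. Dll1 lies alone at -4.84; Adam10, Pofut1, Mib1, Maml2, Spen and Rbpj are filled points below 0, and Aph1a, Rfng, Dtx2, Dner and Bhlhe40 filled points above it.

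None of the 10 follicle markers was at 0 in any library. The most abundant of the 10 follicle markers were Col1a1 and Lum. The 10 together were 3.44% and 3.32% of the library total in cKO and 5.95% and 5.64% in cHet. All 10 had log2 fold changes below 0. Without overlap, 8 of them were lower, beside 14.2% of all genes. Col1a1 alone was 2122200 of the summed 2398995 in cKO_0 and 3673200 of 4129528 in cHet_0. The sum therefore does not show the share of follicle cells. Pthlh, the gene of PTHrP, overlapped, at 12267 and 8613 in cKO and 9253 and 15879 in cHet. Summed markers of Schwann cells and of blood cells were low and highest in cKO_1. The Schwann cell sum was higher in both cKO libraries, at 6825 and 23122 in cKO and 3013 and 688 in cHet. Of the 6 Schwann cell markers tested, 6 had log2 fold changes above 0. Without overlap, 4 of them were higher, beside 18.0% of all genes. The myelin gene Mbp was at 1444 and 5973 in cKO and 913 and 167 in cHet. The myeloid genes Lyz2 and Cd68 were at 853 and 6546 (Lyz2) and 91.6 and 807 (Cd68) in cKO, and at 531 and 4385 (Lyz2) and 139 and 1771 (Cd68) in cHet. Their part in the values of the 10 Notch genes was not tested.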

How the data were processed

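RNA from sorted cells was amplified with SMART-Seq v4 and made into libraries with Nextera XT, per the labels' protocols. The submitters' processing notes name the build mm10 and the tools TopHat2 (2.0.13), Bowtie2 (2.2.1), HTSeq, DESeq2, Cufflinks, Cuffdiff and FastQC, without saying which step each did. The main values are a signal unit, scaled counts, deposited by the authors as gene counts divided by 1 factor per library. No source used here says how the factor was set or if strand was used. The authors also deposited FPKM, which are scaled to length and depth; these served as an alternative. In 4 further tables, 16 columns of per-sample values have names found in no label; they were left out, and no count test was run. Columns count libraries from 0 and sample titles from 1, and each column was therefore tied to a group only. Nothing says that the 2 libraries of a group were taken from different animals; a p-value then reflects only how far these libraries differ, which may be technical. Amplified reads are not independent molecules.

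Group was the only term of a limma fit (3.58.1, R 4.3.3; variance trend on) to log2(scaled count + 3). Genes needed a scaled count of 10 or more in 2 or more libraries, which 14297 met. The fit was tested on simulated data. Intervals and standard errors are limma's moderated ones. P-values are two-sided, adjusted over all genes tested, with 0.05 as threshold. With the added 3, changes of low genes come out too small. Levels per kilobase divide scaled counts by the merged exons of GENCODE vM21 (basic set), the source of gene coordinates too (1-based, GRCm38, the assembly of mm10). Promoter windows are from RefSeq, GRCm38.p6, with the 50 bases after the start site left out.

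The 10 genes, the gene lists and the tests were chosen with earlier results of these data known. Named beside the 10 genes were, by rule, Ptch1, Gli1 and Hhip; Rbpj, Dll1, Dll4, Notch4 and Hes5; the up to 3 lowest-p genes of each pathway list; the 2 most abundant genes of each marker list; and Pecam1, Cdh5, Rgs5 and Cdh1. Some genes that this rule names are not reported here. Higd1b, Des, Pthlh and the genes listed at 0 were named after their values were seen. A description of the proteins was planned and not done. Alternatives were other pseudocounts, filters and scalings, FPKM, a block for the column number, and leaving out each library.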

Additional observations from a re-analysis of the deposited data

How the results depend on the processing

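With scaled counts and all 4 libraries, 0 genes were called in either direction under each pseudocount (1 and 10), filter (none, or a mean of at least 1000) and scaling tried, and with a block for the column number. With log2(FPKM + 1), 2 genes were called higher and 3 lower, and with log2(FPKM + 0.1), 1 and 1; none was a Notch gene. Leaving out 1 library gave 0 to 1061 genes called higher and 0 to 78 lower, the highest counts without cHet_0. With all 4 libraries, 0 of the 10 genes and 0 of the other pathway genes were called in either direction in every setting. Without cHet_0, which left 1 cHet library, log2 fold changes of Hes1, Aph1a, Dtx2 and Neurl1a lay farther above 0 than with all 4. Genes across the whole table were called higher in that fit, so it does not set these genes apart. The columns number the libraries alike in both groups. In scaled counts, same-numbered columns did not deviate together (correlation across genes 0.0486), so the block for the column number is given here only. It called 0 of the 10 genes and left Hes1 at 1.94 and Heyl at -1.99. The ratio of FPKM to scaled counts did split by column number, as given below.

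Median-of-ratios scaling moved the median of all genes from 0.12 to 0.02 and Jag1 to -0.021. Without single libraries, log2 fold changes ran from -0.14 to 0.76 for Notch2, -0.012 to 0.18 for Jag1, -2.42 to 3.31 for Hey2, -1.91 to 0.69 for Nrarp, -1.64 to 4.42 for Notch4, -1.32 to 4.88 for Bhlhe41 and -0.68 to 1.40 for Hes6. The cause was not tested. Notch1, Notch3, Jag2, Hes1, Hey1 and Heyl kept their direction in every alternative. Hey2 and Nrarp fell under the mean filter of 1000, and Hey2 under the FPKM filter, so these give no value for them. Raw depth was not examined, since the scaled totals do not show it.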

Other observations

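The FPKM and scaled count tables related to each other differently in libraries with column number 0 and number 1. FPKM per 1000 scaled counts of Jag1 was 2.64 and 1.16 in cKO_0 and cKO_1 and 2.66 and 1.08 in cHet_0 and cHet_1. For Hey1 it was 7.23 and 3.42 in cKO and 7.21 and 3.20 in cHet, and for Hes1 12.3 and 7.39 in cKO and 12.1 and 6.80 in cHet. Jag2 ran the other way, at 3.68 and 5.12 in cKO and 3.53 and 5.77 in cHet. Notch1 was nearly even over the 4 libraries, between 1.42 and 1.46. Of the 9933 genes that reached 100 scaled counts in every library, the ratio split the libraries by column number without overlap in 95.4% and by group in 1.67%, and the highest ratio was over 2 times the lowest in 43.0%.

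The split bears on what an FPKM comparison shows. Hey1 stood at 22.9 and 9.92 FPKM in cKO and 41.6 and 10.9 FPKM in cHet, so that its groups overlapped in FPKM and not in scaled counts. Within a column number, Hey1 was lower in cKO in both tables, by log2 ratios of -0.86 (number 0) and -0.23 (number 1) in scaled counts and -0.86 and -0.14 in FPKM. Hes1 stood at 70.4 and 40.1 FPKM in cKO and 47.6 and 3.65 FPKM in cHet, and also overlapped. Heyl stood at 1.38 and 3.45 FPKM in cKO and 9.10 and 7.70 FPKM in cHet, and Notch3 at 4.30 and 4.53 FPKM in cKO and 4.78 and 16.4 FPKM in cHet, and neither overlapped. Within column numbers, Jag2 was lower in cKO in scaled counts, by -1.58 and -0.68, although its groups overlapped. Notch2 and Hey2 went opposite ways in the 2 numbers, with log2 ratios in scaled counts of -0.46 and 1.09 for Notch2 and -4.75 and 6.13 for Hey2. Notch1, Jag1 and Nrarp also changed sign in scaled counts. Their ratios were -0.77 and 0.05 for Notch1, 0.26 and -0.10 for Jag1, and -1.35 and 0.12 for Nrarp. In FPKM, Jag1 was at 0.25 and 0.01. No source used here says what the column number stands for.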
